A study of Mus musculus with 24 samples.

Results

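The receptor complex through which lung cells sense bacterial lipopolysaccharide, its lipopolysaccharide carriers and the adaptors below it were followed as 9 genes: Tlr4, Cd14, Ly96, Lbp, Myd88, Tirap, Irak1, Traf6 and Tlr2. They were chosen by name, as all probe sets whose platform symbol is one of these 9, which gave 16 probe sets of the 22690 on the array. A probe set is the group of short probes whose joint signal stands for a transcript. Of the 9 genes, 8 passed the filter on low signals and were tested among 8008 genes, of 12393 with a probe set of their own. Where a gene had several probe sets that passed, the one with the highest mean stood for it.

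The samples were left lung lobes of 24 individual male mice, each RNA on its own Affymetrix array, with 3 mice in each of 8 groups. C3H/HeOuJ (OuJ) carries a sufficient Tlr4 and C3H/HeJ (HeJ) a dominant negative Tlr4, and each strain was held in air or exposed to ozone, an oxidant gas, for 6, 24 or 48 h. Neither the ozone concentration nor the age of the mice is stated in the labels, and 72 h of exposure, which they also mention, was not analysed here. HeJ carries its Tlr4 allele in every cell of the body, and the 2 strains are separate inbred lines, so the allele and other differences between the lines cannot be told apart. The question posed by the series is how the lung transcriptome responds to ozone when Tlr4 is deficient. The lobe is a mixture of cell types, and fewer cells of a type and less RNA per cell cannot be told apart in it.

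LBP, a secreted protein, takes lipopolysaccharide from bacterial membranes and passes it to CD14, which hands it to TLR4 bound to its co-receptor MD-2, the product of Ly96. On the cytoplasmic side TIRAP brings MyD88 to the receptor, and MyD88 gathers IRAK kinases, which engage the ubiquitin ligase TRAF6 and so lead to NF-kB. TLR2, the receptor for bacterial lipoproteins, also uses CD14, TIRAP and MyD88.

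Promoters are shown for Tlr2 and Myd88. Among the genes with a promoter entry, these passed a test in what follows by the probe set that stood for the gene. Tlr2 passed between the strains and in OuJ at 48 h, and Myd88 in HeJ at 24 and 48 h. RefSeq sequences (build GRCm38.p6), from 250 bases before to 50 bases after an annotated start, were given for 5 of the 9 genes: Tlr2, Myd88, Tirap, Irak1 and Traf6. Tlr4, Cd14, Ly96 and Lbp had no entry. Capitals mark matches to the NF-kB consensus in Tlr2 (chr3:83841559-83841858, minus strand) and to TTCNNNGAA, the palindromic core of STAT binding sequences, in Myd88 (chr9:119339969-119340268, minus strand).
Tlr2: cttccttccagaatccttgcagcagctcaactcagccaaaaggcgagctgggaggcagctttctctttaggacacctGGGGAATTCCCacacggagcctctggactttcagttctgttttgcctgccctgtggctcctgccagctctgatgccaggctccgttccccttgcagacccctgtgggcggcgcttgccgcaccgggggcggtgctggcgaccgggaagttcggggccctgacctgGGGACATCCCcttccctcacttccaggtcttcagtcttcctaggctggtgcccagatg
Myd88: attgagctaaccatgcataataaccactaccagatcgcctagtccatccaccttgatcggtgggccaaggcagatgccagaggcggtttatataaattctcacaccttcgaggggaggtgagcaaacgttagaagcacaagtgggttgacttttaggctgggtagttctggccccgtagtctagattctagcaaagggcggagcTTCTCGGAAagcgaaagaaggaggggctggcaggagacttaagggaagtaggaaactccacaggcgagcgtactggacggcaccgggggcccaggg
Both strands were searched. With the start as position 0, Tlr2 had 2 overlapping NF-kB matches (GGGGAATTCC and GGGAATTCCC), which together ran from -173 to -163, and a separate GGGACATCCC from -8 to 1. Irak1 had 1 such match, GGGACGCCCC, and Myd88, Tirap and Traf6 had none. Of 32851 promoters of this length, 8.46% held a match to this consensus. The TTCNNNGAA match of Myd88, TTCTCGGAA, lay from -46 to -38, the other 4 genes had none, and 8.3% of promoters held it. Neither GAANNTTC, TGACNNNGC nor TGANTCA occurred in the 5 genes' windows, against 7.86%, 12.4% and 7.81% of all promoters. A match describes letters in these windows and says nothing of binding.

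Before the results, 3 features of the arrays bear on them. The labels' array codes fall into 3 series: series 3 holds air and 6 h of both strains, series 10 the OuJ arrays at 24 and 48 h and series 13 the HeJ arrays at 24 and 48 h. What a code series stands for is not stated, and the change from air to 24 or 48 h cannot be told apart from it. The ratio of the 5' to the 3' Gapdh control probe sets, a sign of RNA integrity and labelling, was 0.781 to 1.03 in OuJ (median 0.836) and 0.497 to 0.944 in HeJ (median 0.616). The codes of 4 HeJ arrays (replicate 2 in air, replicate 2 at 6 h, and replicates 1 and 3 at 24 h) carry a suffix whose meaning is not stated. Within a group the arrays correlated at 0.965 to 0.979 over the probe sets, which are not independent of each other, and the 3 arrays a group limit the precision. Lung epithelial markers were high in every group, with summed signals of the 5 genes (Sftpc, Sftpb, Scgb1a1, Ager, Foxj1) between 80747 and 115280, which fits the labelled tissue.

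**Figure D1:**
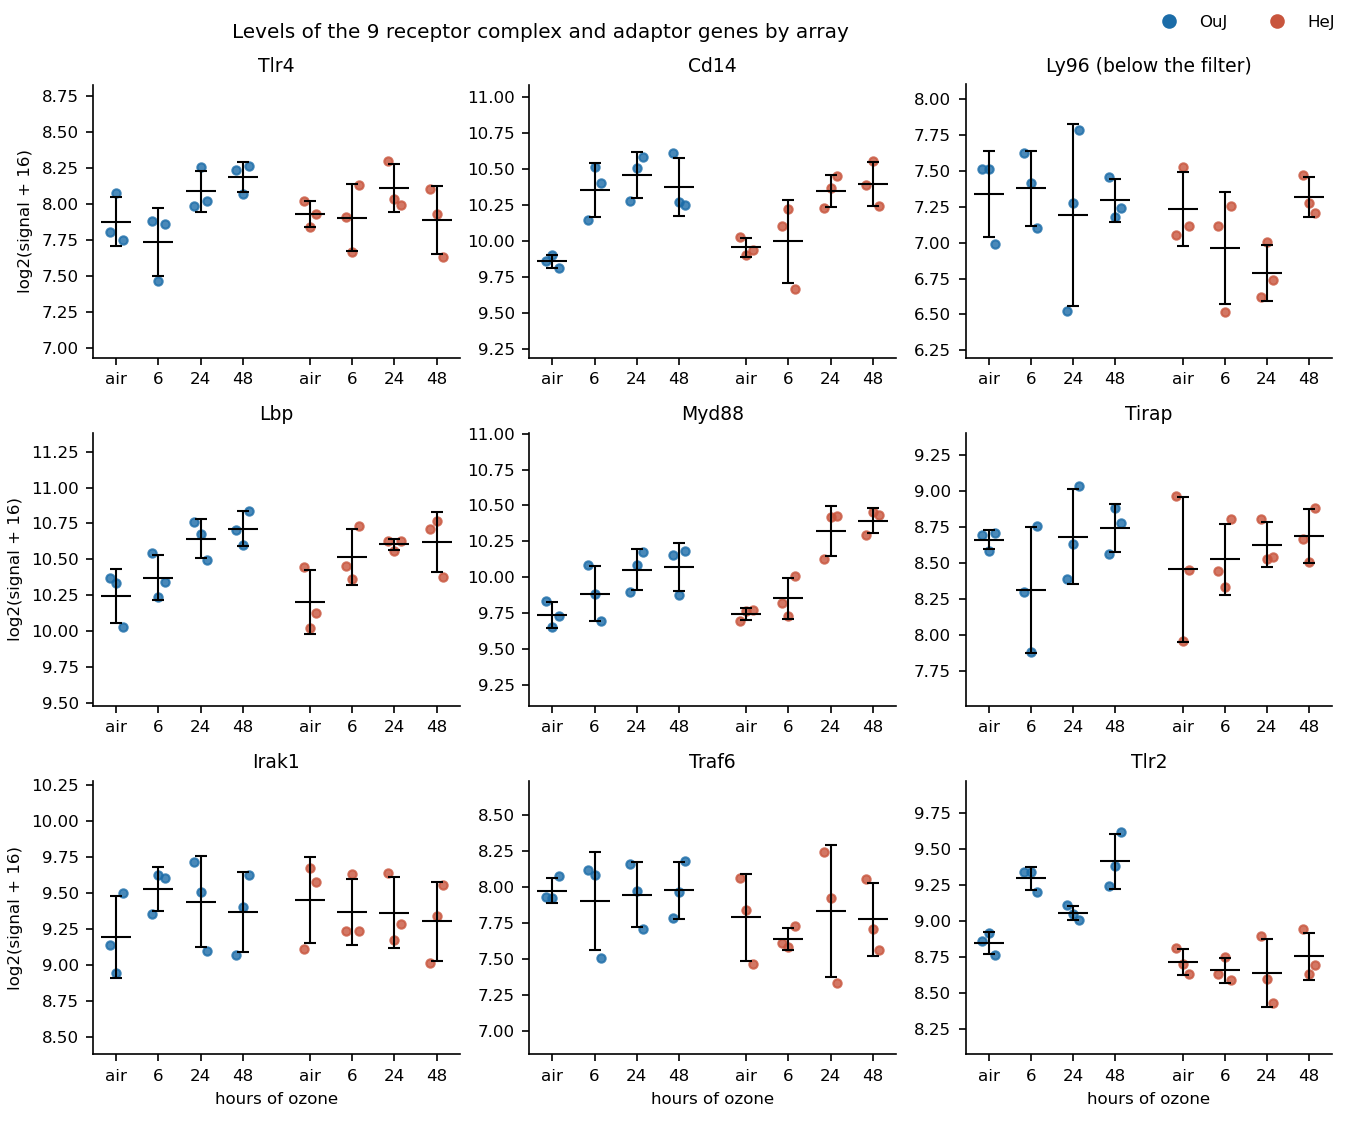
Levels of the 9 genes on each array as log2(signal + 16), by hours of ozone, for OuJ (blue) and HeJ (red). Each gene is shown by its probe set with the highest mean. Points are arrays, bars are the mean ± SD of 3 arrays, and every panel spans the same height. Tlr2 in OuJ lies above Tlr2 in HeJ at 6, 24 and 48 h, Cd14 and Lbp are higher at 48 h than in air in both strains, and Tlr4, Tirap, Irak1 and Traf6 overlap with air at every time.

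Tlr4 itself, the lipopolysaccharide receptor, passed in no comparison. Its signals in air were 207.8, 254 and 199.9 in OuJ and 244.4, 213.2 and 227.8 in HeJ, so the strains overlapped. Over all exposures OuJ ran from 160.6 to 291.3 (median 240.9) and HeJ from 182.8 to 299.4 (median 233.3). The strain difference over the 4 exposures was 0.01 ± 0.08 on the log2(signal + 16) scale (± SE; limma, adjusted p = 0.924). The HeJ receptor is altered in its protein, so this level was no check of the strain labels. The changes from air ran from -0.14 in OuJ at 6 h to 0.31 in OuJ at 48 h, where the adjusted p from limma was 0.284, and the exposed arrays overlapped with air at each time in both strains. The other Tlr4 probe set stayed under the filter, with group means from 61.0 to 111.9. In it the HeJ arrays at 24 h (95.8 to 140) lay above HeJ air (24.4 to 82.7), and the other exposed groups overlapped with air.

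Ly96, which encodes the co-receptor MD-2, did not pass the filter on low signals. Its single probe set read 75.7 to 203.9 over the 24 arrays, and the filter asked for more than 218.3, the median of all values, on at least 3 arrays. Group means were 139.5 to 152.2 in OuJ and 95.3 to 143.9 in HeJ, the lowest being HeJ at 24 h. The HeJ arrays at 24 h (82.5 to 112.4) lay below HeJ air (117 to 168.4), and the other exposed groups overlapped with air. Without a filter no comparison of Ly96 passed, the smallest adjusted p from limma being 0.316, and the SE of a change from air was 0.27, so that changes of such a size were not detectable.

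Cd14, the lipopolysaccharide co-receptor of macrophages and other cells, rose with ozone in both strains, in OuJ at 24 and 48 h and in HeJ at 48 h. In OuJ the 3 arrays read 913.8, 940.2 and 883.7 in air, and 1116.3, 1445.2 and 1339.5 at 6 h. At 24 h they read 1224.3, 1441.9 and 1522.3, and at 48 h 1545.4, 1218.7 and 1203.5. Every exposed OuJ array thus lay above every OuJ air array. The change was 0.60 ± 0.14 at 24 h, a 1.52-fold higher signal + 16 (limma, adjusted p = 0.00792), and 0.52 ± 0.14 at 48 h (adjusted p = 0.0183). At 6 h it was 0.50 ± 0.14 with an adjusted p of 0.111 from limma, and did not pass. It was the only one of the 9 genes that passed in OuJ at 24 h, where 6.57% of all genes tested did. Without replicate 3 of OuJ at 24 h its adjusted p from limma was 0.0543 (change 0.53), and at 48 h it was 0.0543 without replicate 1 in air, 0.064 without replicate 3 in air and 0.116 without replicate 1 at 48 h (change 0.40).

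In HeJ the Cd14 signals were 1029.5, 940 and 963.2 in air. They were 1084, 1176.3 and 797.6 at 6 h, which overlapped with air. At 24 h they were 1184.8, 1306.6 and 1382.2, and at 48 h 1323.9, 1488.9 and 1197.4, all above air. The change was 0.39 ± 0.14 at 24 h (limma, adjusted p = 0.08), which missed the threshold, and 0.44 ± 0.14 at 48 h (adjusted p = 0.0345). The 48 h call ended, with adjusted p values of 0.0562 to 0.153 from limma, when any 1 of the 3 air arrays, replicate 1 or replicate 2 at 48 h, or the 4 arrays with suffixed codes were left out. The difference between the strains in the 6 h change was 0.45 ± 0.19, with an unadjusted p of 0.0263 and an adjusted p of 0.823 from limma, so a strain difference in Cd14 was not shown. With both strains averaged, Cd14 rose by 0.50 ± 0.10 at 24 h and 0.48 ± 0.10 at 48 h (limma, adjusted p = 0.000849 and 0.000879), and both calls passed under all 24 alternatives.

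Lbp, which encodes the lipopolysaccharide-binding protein, rose at 48 h in both strains. In OuJ it read 1310.4, 1276.1 and 1029.9 in air, 1474.3, 1190.9 and 1283.3 at 6 h, and 1717.3, 1619.7 and 1429.2 at 24 h. At 48 h it read 1651.6, 1533.2 and 1816.5. The 24 and 48 h arrays lay above air and the 6 h arrays overlapped with it. The OuJ change was 0.47 ± 0.13 at 48 h (limma, adjusted p = 0.0305), and 0.40 ± 0.13 at 24 h (adjusted p = 0.0773). In HeJ it read 1383.2, 1024.5 and 1104.8 in air, 1384.9, 1301.4 and 1686.1 at 6 h, 1565.9, 1493.4 and 1566.9 at 24 h, and 1664.3, 1726.6 and 1316.1 at 48 h. Only the 24 h arrays lay wholly above air, yet the pooled spread of the model put the 48 h change, 0.42 ± 0.13, past the threshold (limma, adjusted p = 0.042) and not the 24 h change, 0.40 ± 0.13 (adjusted p = 0.0682).

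The Lbp calls of the single strains depended on single arrays and, in HeJ, on the processing. In OuJ the 48 h call ended without replicate 2 or 3 in air or without replicate 1 or 3 at 48 h, with adjusted p values from limma of 0.0518 to 0.16. In HeJ it passed under 8 of 18 alternatives. It ended there without replicate 2 or 3 in air or without replicate 1 or 2 at 48 h, with adjusted p values of 0.127 to 0.176 from limma, and was at 0.199 without the arrays with suffixed codes (change 0.33). With all arrays kept it also ended under quantile normalization, without the filter, without the intensity trend, in a fit to only the groups compared and with the Gapdh covariate, at adjusted p values of 0.0524 to 0.0948 from limma. Averaged over strains, Lbp rose by 0.40 ± 0.09 at 24 h and 0.44 ± 0.09 at 48 h (limma, adjusted p = 0.005 and 0.0016). The 24 h average alone was lost, at an adjusted p of 0.11, without the suffixed arrays. The strain difference of Lbp over the 4 exposures was 0.01 ± 0.07 (limma, adjusted p = 0.945).

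Lbp is known as a liver product, so hepatocyte markers were read beside it. Of 4 such genes 3 are on the array, and Alb (albumin) was the only one above the filter, at 101.3 to 286.6 over the 24 arrays, while Ttr (transthyretin) read 9 to 20.4. The summed level of the 3 was 133.2 to 251.6 in OuJ air and 244.2 to 373.8 in OuJ at 48 h, and 148.8 to 351.2 in HeJ air and 282.3 to 329 in HeJ at 48 h. Alb rose in the groups where Lbp rose, and in OuJ at 24 h as well, by 0.88 ± 0.18 in OuJ at 48 h (limma, adjusted p = 0.00377) and by 0.59 ± 0.18 in HeJ at 48 h (adjusted p = 0.0359). The other 2, Apoa1 and Ttr, both under the filter, had no higher mean at 48 h than in air. Apoa1 means were 56.2 in air and 55.9 at 48 h in OuJ, and 78.4 and 48.3 in HeJ. Ttr means were 17.1 and 15.3 in OuJ, and 14.2 and 13.8 in HeJ. The part of these markers in the Lbp result was not tested.

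Myd88, the adaptor shared by most Toll-like receptors, rose in HeJ at 24 and 48 h. The HeJ arrays read 812.7, 853.3 and 857.6 in air, 890.7, 832 and 1012.8 at 6 h, 1100.8, 1356.5 and 1360.7 at 24 h, and 1239.9, 1388.6 and 1368.7 at 48 h. Every 24 and 48 h array lay above air and the 6 h arrays overlapped with it. The change was 0.58 ± 0.12 at 24 h, 1.5-fold (limma, adjusted p = 0.00367), and 0.65 ± 0.12 at 48 h, 1.57-fold (adjusted p = 0.000902). The 48 h call passed under all 18 alternatives, and the 24 h call under 17 of 18, the exception being the fit without the suffixed arrays, which keeps 1 array at 24 h, assumed to vary like the other groups (change 0.69, adjusted p = 0.0955). At 24 h Myd88 was the only one of the 9 genes that passed in HeJ, where 7.11% of all genes tested did.

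In OuJ, Myd88 read 896.1, 791 and 833.2 in air, 1069.2, 927 and 813.7 at 6 h, 936.9, 1071.1 and 1141 at 24 h, and 1122.6, 924 and 1148.6 at 48 h. The 24 and 48 h arrays again lay above air. The change was 0.31 ± 0.12 at 24 h and 0.33 ± 0.12 at 48 h, and neither passed (limma, adjusted p = 0.125 and 0.0888). The 48 h change did pass with the Gapdh ratio as a covariate (0.37 ± 0.11, adjusted p = 0.0371 from limma) and without replicate 2 at 48 h (0.43 ± 0.13, adjusted p = 0.0444). The OuJ change at 48 h was smaller than the HeJ change by 0.32 ± 0.17, but this difference did not pass either (limma, unadjusted p = 0.0684, adjusted p = 0.658). Averaged over the strains the rise was 0.45 ± 0.08 at 24 h and 0.49 ± 0.08 at 48 h (limma, adjusted p = 0.000644 and 0.000194), under all 24 alternatives.

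The other cytoplasmic members passed against air at no time in either strain. Tirap, the bridging adaptor, read 219.3 to 508.3 in OuJ (median 389.3) and 232.1 to 483.1 in HeJ (median 355.2), and its changes from air ran from -0.35 to 0.23. Traf6, the ubiquitin ligase, read 166.1 to 274 in OuJ (median 234.6) and 145.4 to 286.6 in HeJ (median 194.2), with changes of -0.15 to 0.04. Irak1, the kinase, read 475.8 to 827 in OuJ (median 685.7) and 501.3 to 800.1 in HeJ (median 620.2), with changes of -0.15 to 0.33. In the probe sets that stood for these 3 genes the arrays overlapped with air at every time. The smallest adjusted p against air was 0.519 from limma. Their other probe sets overlapped with air too, except in 3 cases. Irak1 1438857_x_at read 272.9 to 303.7 in HeJ at 6 h, above air (216.4 to 262.6). Irak1 1448668_a_at read 143.6 to 182.1 in OuJ at 24 h, below air (182.5 to 272.9). Tirap 1418685_at, under the filter, read 18 to 22.6 in OuJ at 24 h, below air (35.9 to 74.1). Intervals for a single change were wide: that of Traf6 in OuJ at 48 h ran from -0.45 to 0.45.

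**Figure D2:**
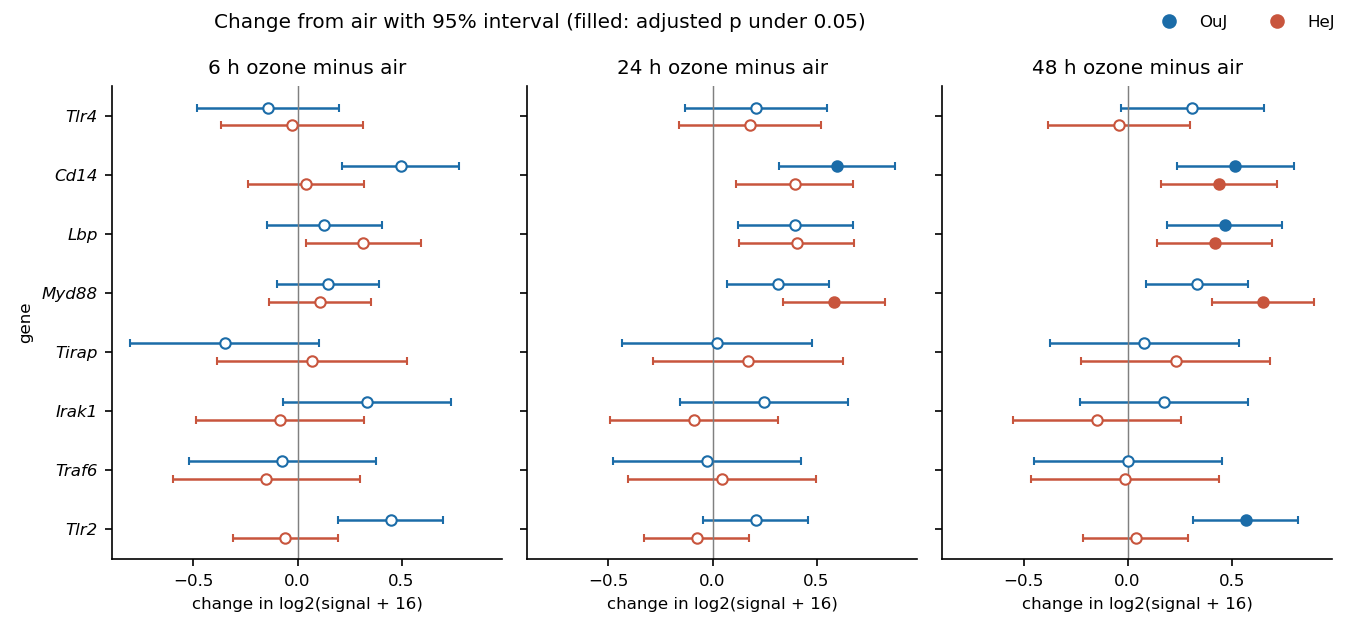
Change from air in log2(signal + 16) with its 95% interval for the 8 genes tested, at 6, 24 and 48 h, in OuJ (blue) and HeJ (red). Filled points have an adjusted p under 0.05: none at 6 h, 2 at 24 h and 6 at 48 h.

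Tlr2, the lipoprotein receptor, was the 1 member whose representative probe set passed between the strains, being higher in OuJ. In OuJ the arrays read 450.4, 467.6 and 419.9 in air, 633.1, 634.2 and 574.4 at 6 h, 536.9, 514.2 and 499.7 at 24 h, and 591.3, 651.9 and 772 at 48 h. All 9 exposed arrays lay above the 3 air arrays. In HeJ they read 434.7, 400.6 and 380.7 in air, 380.4, 415.6 and 368.8 at 6 h, 459.6, 371.1 and 328.7 at 24 h, and 476, 380.9 and 398.3 at 48 h, and all exposed groups overlapped with air. Ordered by mean, the 4 HeJ groups (386.5 to 418.4) came lowest and overlapped with each other, OuJ air (446.0 ± 24.2, SD, n = 3) overlapped with HeJ air, and OuJ at 24 h (516.9 ± 18.8), 6 h (613.9 ± 34.2) and 48 h (671.7 ± 92.0) followed, the last pair overlapping.

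Against air, Tlr2 in OuJ rose by 0.57 ± 0.12 at 48 h, 1.48-fold (limma, adjusted p = 0.0052). At 6 h the change was 0.45 ± 0.12 (adjusted p = 0.111 from limma) and at 24 h 0.21 ± 0.12 (adjusted p = 0.359), and neither passed. The 48 h call had an adjusted p of 0.0516 without replicate 3 at 48 h, the highest array (change 0.46). In HeJ the changes were -0.06, -0.08 and 0.04 ± 0.12 at 6, 24 and 48 h, with intervals within -0.33 to 0.29. Tlr2, Cd14 and Lbp were the 3 members that passed in OuJ at 48 h, where 7.9% of all genes did, and Myd88, Cd14 and Lbp the 3 in HeJ at 48 h, where 12.1% did. At 6 h no member passed in either strain, by limma, where 0.137% of all genes did in OuJ and 0.0375% in HeJ, and 838 and 723 genes had an unadjusted p under 0.05. With both strains averaged, 0 members passed at 6 h, where 1.17% of all genes did (1067 at an unadjusted p under 0.05 in limma), 3 members passed at 24 h (Cd14, Lbp, Myd88), where 16.4% of all genes did, and 4 at 48 h, where 20.2% did. The fourth was Tlr2 (0.30 ± 0.09, adjusted p = 0.014 from limma), and without replicate 3 of OuJ at 48 h its adjusted p was 0.0536.

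Directly compared, Tlr2 was higher in OuJ than in HeJ by 0.46 ± 0.06 over the 4 exposures (limma, adjusted p = 1.88e-05). It was the 1 member of the 8 tested that passed, where 19.7% of all genes did. In air the difference was 0.13 ± 0.12 (adjusted p = 0.673 from limma) and the strains overlapped. It was 0.64 ± 0.12 at 6 h (limma, adjusted p = 0.00815), 0.42 ± 0.12 at 24 h (adjusted p = 0.0787) and 0.66 ± 0.12 at 48 h (adjusted p = 0.0021), and at each of these times all OuJ arrays lay above all HeJ arrays. Tlr2 was the only member that passed at 6 h and at 48 h, where 1.49% and 7.95% of all genes did. In air, where 0.774% passed, and at 24 h, where 1.87% did, no member passed, and 1138 and 1251 genes had an unadjusted p under 0.05 in limma. Between 24 and 48 h no member passed either, in OuJ, where 0.15% of all genes did, or in HeJ, where 5.47% did (640 and 1667 genes at an unadjusted p under 0.05 in limma).

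Whether ozone changed Tlr2 differently in the strains was not settled by the test of that difference. The OuJ change exceeded the HeJ change by 0.51 ± 0.17 at 6 h (limma, unadjusted p = 0.00742, adjusted p = 0.76), by 0.28 ± 0.17 at 24 h (adjusted p = 0.74) and by 0.53 ± 0.17 at 48 h (unadjusted p = 0.00561, adjusted p = 0.358). No member passed for a strain difference of the change at any time. Of all genes, 0.0125% passed at 6 h, 0.0125% at 24 h and 0% at 48 h, while 461, 626 and 658 had an unadjusted p under 0.05 in limma.

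Within code series 3, the only series with both strains, Tlr2 was higher in OuJ by 0.39 ± 0.08 (limma, adjusted p = 0.0128), over air and 6 h. Over 24 and 48 h, where strain and code series cannot be told apart, the difference was 0.54 ± 0.10 (adjusted p = 0.00446), and Myd88 was lower in OuJ by 0.30 ± 0.09 (adjusted p = 0.0437). Within code series 3 Myd88 gave 0.02 ± 0.08 between the strains (adjusted p = 0.935 from limma), and with the Gapdh covariate described next its 48 h strain difference was -0.07 ± 0.15 in place of -0.32 ± 0.12. The Gapdh ratio moved with strain. Within code series 3 every OuJ array (0.781 or more) lay above every HeJ array (0.714 or less), so strain and this ratio cannot be told apart there. With the ratio as a covariate the Tlr2 difference was 0.30 ± 0.11 (adjusted p = 0.201 from limma) over the 4 exposures, 0.47 ± 0.15 at 6 h (adjusted p = 0.313) and 0.45 ± 0.16 at 48 h (adjusted p = 0.227), so that these 3 calls ended. The same covariate cut the genes that passed for strain over the 4 exposures from 1581 to 102. The OuJ rise of Tlr2 at 48 h was 0.54 ± 0.12 with it (adjusted p = 0.00612 from limma). At 6 h the strain call also ended in a fit to only the groups compared, where the difference was again 0.64, ± 0.11 (adjusted p = 0.081 from limma).

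**Figure D3:**
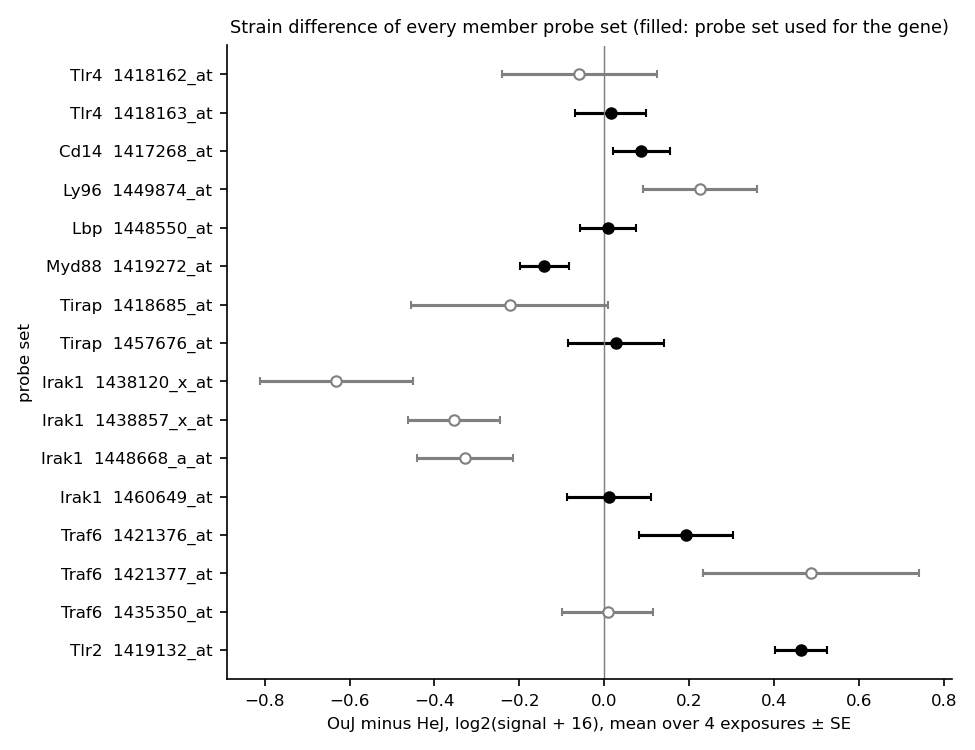
Difference between OuJ and HeJ in log2(signal + 16), averaged over the 4 exposures, ± SE, for all 16 probe sets of the 9 genes (12 arrays a strain); filled points stand for the gene in the tests. Tlr2 lies at 0.46, 3 of the 4 Irak1 probe sets lie between -0.63 and -0.33, and the fourth, used for the gene, lies at 0.01.

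For Irak1 the strain comparison depended on the probe set. The probe set that stood for the gene, 1460649_at, gave 0.01 ± 0.10 for OuJ minus HeJ. In a fit of all probe sets, 1438120_x_at was lower in OuJ by 0.63 ± 0.18 (limma, adjusted p = 0.0232), 1438857_x_at by 0.35 ± 0.11 (adjusted p = 0.0346), and 1448668_a_at gave -0.33 ± 0.11 (adjusted p = 0.062), which did not pass. These 3 have lower signals: group means of 1438120_x_at were 92.1 to 204.3 in OuJ and 173.5 to 313.4 in HeJ, and those of 1438857_x_at 194.4 to 225.6 in OuJ and 241.9 to 290.1 in HeJ. The suffix x of a probe set marks probes that can also bind other transcripts. Averaging the gene's probe sets gave -0.33 ± 0.09 (adjusted p = 0.0122 from limma), a call that the brightest probe set, at 0.01 ± 0.10, did not give. Within code series 3 no Irak1 probe set passed (-0.77 ± 0.23 for 1438120_x_at, adjusted p = 0.0934), and none passed with the Gapdh ratio as a covariate (smallest adjusted p 0.455).

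Macrophages and neutrophils carry Cd14 and Tlr2 at their surface, so their markers were read beside these genes. The 9 macrophage and monocyte markers on the array, of 10 listed, summed to 35473 to 40088 in OuJ air, 39052 to 44518 at 6 h, 37707 to 48974 at 24 h and 40042 to 44181 at 48 h, and to 39857 to 41972, 38608 to 43423, 36544 to 44460 and 35629 to 39959 in HeJ. Every exposed group overlapped with its air group, but 1 gene, Lyz2, made up most of this sum, with group means of 23991 to 29941. Single markers moved in both directions. In HeJ at 48 h, where Cd14 rose, Marco rose by 2.00 ± 0.42 and Chil3 by 0.80 ± 0.17, while Csf1r fell by 0.56 ± 0.11 (limma, adjusted p = 0.00324, 0.00392 and 0.00208). Csf1r also fell in HeJ at 24 h and Ccr2 in OuJ at 24 h, by 0.63 ± 0.11 and 1.31 ± 0.38 (limma, adjusted p = 0.00139 and 0.0367). Over the 4 exposures Cd68 and Itgax passed as higher in OuJ than in HeJ, and Marco and Chil3 as lower. Of the neutrophil markers 3 of 7 were tested. S100a8 and S100a9 fell in OuJ at 24 and 48 h, and the summed level of the 5 on the array was 2387 to 3287 in OuJ air, 862.9 to 1083.3 at 24 h and 1053.1 to 1591 at 48 h. In HeJ none of the 3 passed, and the sum was 1880.8 to 2534 in air, 1176.1 to 1921.4 at 24 h and 1136.1 to 2152.6 at 48 h. With both strains averaged all 3 fell at 24 and 48 h, and none passed for a strain difference of the change. The 3 B cell markers tested (Cd79a, Cd79b, Ms4a1) fell at 24 and 48 h in both strains, and all 3 endothelial markers fell at 48 h in both. The part of these cell types in the member results was not tested.

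The rest of the pathway was read from lists of 64 other genes, of which 33 passed the filter. In OuJ at 24 h 3 rose and 2 fell and at 48 h 3 rose and 1 fell. In HeJ 3 rose and 1 fell at 24 h and 7 rose and 3 fell at 48 h. Of all genes tested, 6.57%, 7.9%, 7.11% and 12.1% passed in these 4 comparisons. No listed gene passed at 6 h in either strain alone, but with both strains averaged Ptgs2 and Cxcl1 rose at 6 h, by 0.78 ± 0.18 and 1.22 ± 0.30 (limma, adjusted p = 0.0288 and 0.0475). The median change of the 33 was -0.05, -0.06, -0.06 and -0.08 in these 4 comparisons, against -0.03, -0.02, -0.02 and -0.03 over all genes. The 8 tested members had medians of 0.23, 0.32, 0.17 and 0.14 there.

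Most rises were inducible outputs, genes known to be switched on downstream of NF-kB and related factors. Saa3, an acute phase protein, was 132.3 ± 20.3 in OuJ air (SD, n = 3) and 957.1 ± 258.2 at 48 h, and 137.1 ± 39.2 and 2732 ± 375 in HeJ. All 48 h arrays lay above air, and the changes were 2.69 ± 0.30 (limma, adjusted p = 5.91e-06) and 4.19 ± 0.30 (adjusted p = 4.83e-09). At 48 h Saa3 was lower in OuJ than in HeJ by 1.52 ± 0.30 (limma, adjusted p = 0.00383), which is opposite to the order of Tlr2. At that time strain and code series cannot be told apart. No inducible output passed for a strain difference of the 48 h change, where 0% of all genes did, so a larger Saa3 rise in HeJ was not shown. Lcn2, a lipocalin that binds bacterial iron chelators, rose by 1.10 ± 0.19 in OuJ and 1.78 ± 0.19 in HeJ at 48 h (limma, adjusted p = 0.001 and 4.87e-06). Cxcl1, a neutrophil-attracting chemokine, rose by 2.04 ± 0.43 in OuJ at 24 h and by 1.66 ± 0.43 and 2.37 ± 0.43 in HeJ at 24 and 48 h (limma, adjusted p = 0.00463, 0.0178 and 0.000869). Ptgs2, the inducible cyclooxygenase, rose at 48 h by 1.16 ± 0.25 in OuJ and 1.04 ± 0.25 in HeJ (adjusted p = 0.00589 and 0.00901) and was higher in OuJ over the 4 exposures by 0.56 ± 0.13 (adjusted p = 0.00313). Tnf and Il6 stayed below the filter, at 11.4 to 64.3 and 34 to 98.5.

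**Figure D4:**
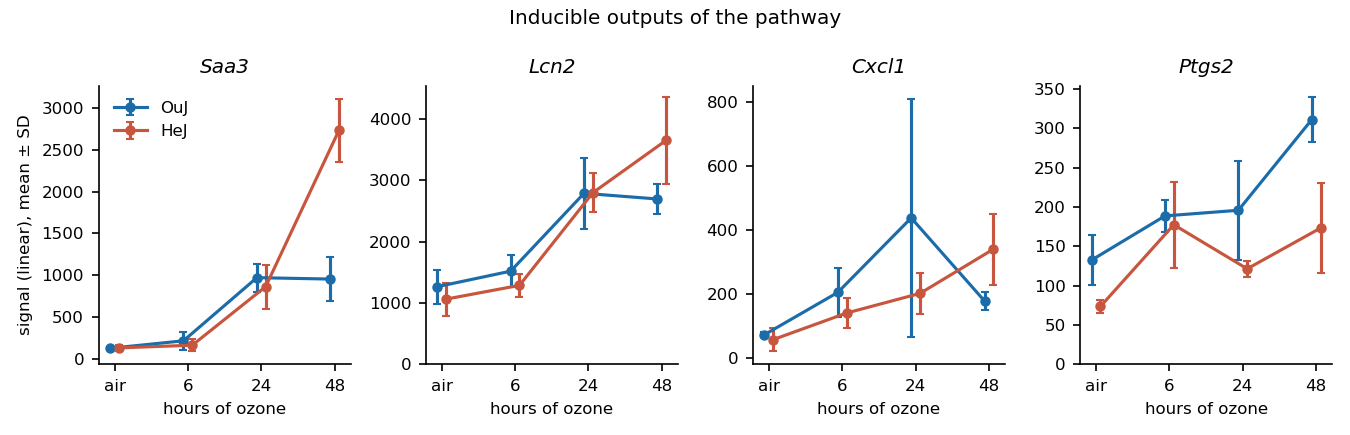
Mean signal ± SD (3 arrays) of 4 inducible outputs of the pathway, Saa3, Lcn2, Cxcl1 and Ptgs2, by hours of ozone in OuJ (blue) and HeJ (red); the axes are linear and start at or below 0. Saa3 reached 957.1 in OuJ and 2732 in HeJ at 48 h, and Ptgs2 is higher in OuJ at 48 h.

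Among receptors and accessory genes, 9 of 17 were tested. Ly86, the MD-2 relative that partners CD180, fell from 440.7 ± 101.8 in OuJ air to 281.4 ± 2.8 at 24 h and from 586.8 ± 82.1 in HeJ air to 312.9 ± 70.4 at 24 h and 367.1 ± 59.9 at 48 h, all below air (limma, adjusted p = 0.0313, 0.00202 and 0.0105). Cd36, a scavenger receptor that assists TLR2, fell at 48 h by 0.49 ± 0.14 in OuJ and 0.48 ± 0.14 in HeJ (limma, adjusted p = 0.0371 and 0.0314). Tlr3, the receptor for double-stranded RNA, fell in OuJ at 24 h by 0.66 ± 0.20 (adjusted p = 0.0497). Hsp90b1, the chaperone gp96 that folds Toll-like receptors, rose in HeJ at 48 h by 0.71 ± 0.16 (adjusted p = 0.00488).

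Of 23 other adaptors, kinases and ubiquitin factors 12 were tested. In the single strains Ube2n, the ubiquitin-conjugating partner of TRAF6, was the 1 that passed against air, rising by 0.68 ± 0.13 in HeJ at 48 h (limma, adjusted p = 0.00182). With both strains averaged Ube2n rose at 24 and 48 h, while Tab3, which binds TAK1, fell by 0.36 ± 0.12 at 24 h (limma, adjusted p = 0.0359). At 48 h Peli1, a ubiquitin ligase, fell by 0.21 ± 0.07 and Ikbkg, the IKK subunit NEMO, by 0.24 ± 0.08 (adjusted p = 0.0451 and 0.0482 from limma). Averaged over exposures, 3 of the 33 listed genes tested passed as higher in OuJ and 3 as lower, where 19.7% of all genes passed. Tab2, Map3k7 (the kinase TAK1) and Rela (an NF-kB subunit) were lower in OuJ, by 0.25, 0.32 and 0.17 (limma, adjusted p = 0.00825, 0.00953 and 0.0433). Besides Ptgs2, Il1b and Itgb2 (an integrin chain) were higher in OuJ, by 0.42 and 0.43 (limma, adjusted p = 0.00259 and 0.00383). With the Gapdh ratio as a covariate none of the 33 passed for strain. Of 5 tested negative regulators Dusp1, a phosphatase of MAP kinases, fell in HeJ at 48 h by 0.94 ± 0.25 (adjusted p = 0.0141).

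The members did not move as 1 group across the 24 arrays. By Pearson r, which here also carries the group differences, Lbp and Tlr4 gave 0.66, Lbp and Myd88 0.60, Cd14 and Myd88 0.56, and Myd88 and Tlr2 -0.13. With each array set against its group's mean, Lbp and Tlr4 gave 0.69, Lbp and Myd88 0.18, and Cd14 and Myd88 -0.08. Myd88 and Tlr2 then gave -0.36, and Traf6 and Tlr2 0.78. The genes with the highest r to Cd14 were Steap4 (0.818) and Gclc (0.778), those to Lbp Sec14l1 and Slc2a1 (both 0.795), those to Myd88 Socs3 (0.864) and Ybx3 (0.831), and those to Tlr2 Fancl (0.817) and Lman2 (0.799). For Tlr4 they were Atp6v1g1 (0.752) and Arsi (0.733), for Tirap Nkx2-3 (0.678) and Dnajb2 (0.675), for Irak1 Synj2 (0.683) and Aif1l (0.638), and for Traf6 Yipf7 (0.670) and Ipo11 (0.650). These are descriptions over arrays that share groups, and none of these genes was again among the highest 2 when group means were removed.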

How the data were processed

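The deposited table holds a linear signal intensity for each of 22690 probe sets, made by the authors with GCOS 1.4, per the submitters' processing notes. The settings of that program are not stated in the labels. The values carry a common scaling: after trimming 2% from each tail the array means were 500.14 to 500.17, and array medians were 200.1 to 229.3. Per the labels' protocols, total RNA of individual lungs was labelled with biotin. There are no detection calls among the values used.

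From these, log2(signal + 16) was computed. A probe set was kept if its signal exceeded 218.3, the overall median, on at least 3 of 24 arrays (12866, of which 11843 had 1 symbol). By the platform annotation 20380 probe sets had 1 symbol, 691 several and 1555 none, besides 64 controls, and 0 symbols were updated. For each gene the kept probe set with the highest mean was used (8008 genes). All 24 arrays entered 1 linear model of the 8 group means (limma 3.58.1, R 4.3.3, with files read by the package data.table, version 1.17.8), with an intensity trend of the variances, which was tested on simulated data. From it 13 planned comparisons and 6 added after the data were seen (the strains at each ozone time, and both strains averaged) were drawn. P-values are two-sided, adjusted by Benjamini-Hochberg over all genes of a comparison, and passed under 0.05. Comparisons of a strain with air share its air arrays. A fold is of signal + 16 and understates changes of dim probe sets.

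The 9 genes and all lists were chosen with earlier results of these data known. All 9 genes are named, with up to 3 genes per list and comparison, by smallest p, and the 2 genes most like each member by r. The alternatives changed the normalization (quantile, or median centring), the pseudocount (1 or 64), the filter (none), the probe sets (their mean, or all kept) or the model (no trend, the compared groups alone, replicate block, Gapdh ratio as a covariate, code series), or left out the suffixed arrays or 1 array at a time. Replicate numbers did not pair the samples: same-numbered arrays of different groups had correlations of their deviations between -0.102 and 0.201 (median 0.028).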

Additional observations from a re-analysis of the deposited data

How the results depend on the processing

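Of 3176 values of single members recomputed under alternatives, 32 lost their call and 7 gained a call with the sign of the main fit. Of the 3176 values, 259 had the opposite sign to the main fit, and 1 of these was a call. The call with the opposite sign was Irak1 between the strains, -0.33 with the mean of its probe sets. The main fit gave 0.01 ± 0.10 there, which was no call and showed no direction. With median centring 2 members passed in OuJ at 24 h (Lbp joined at an adjusted p of 0.0215 from limma) and 2 between the strains at 48 h (Myd88 joined, -0.41). With the mean of probe sets, and over the 24 and 48 h groups alone, 2 passed between the strains averaged over exposures. In a fit to only the groups compared 0 passed between the strains at 6 h. Without the suffixed arrays 0 passed in HeJ at 24 h and 1 in HeJ at 48 h. With the Gapdh ratio as a covariate 0 passed between the strains over the 4 exposures, at 6 h and at 48 h. That covariate brought Myd88 in OuJ at 48 h past the threshold (0.37). The causes were not tested. Leaving out 1 array at a time gave 0 to 1 members in OuJ at 24 h, 1 to 4 in OuJ at 48 h, 1 to 2 in HeJ at 24 h, 1 to 3 in HeJ at 48 h and 0 to 1 between the strains at 24 h (Tlr2, adjusted p = 0.0383 from limma, without replicate 1 of HeJ). The replicate block changed none of these counts, for example 3 in OuJ at 48 h and 1 for strain. The samples share only a number. These member counts are not set beside the share of all genes under the same setting, so they show no trait particular to the members. Counts over all genes moved too: in HeJ at 24 h from 569 to 41 without the suffixed arrays, in OuJ from 526 to 243 without replicate 3 at 24 h and from 633 to 286 without replicate 3 at 48 h, in OuJ at 6 h from 11 to between 3 and 128 and in HeJ at 6 h from 3 to between 0 and 59 with single arrays or settings changed, and between the strains with the Gapdh ratio from 62 to 8 in air, 119 to 13 at 6 h and 637 to 56 at 48 h. The limits are 3 arrays a group, code series that cannot be told apart from 24 and 48 h, and signals of Ly96 under the filter.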
